A study of Mus musculus with 2 samples.

Results

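The endoplasmic reticulum folding and amino acid stress module is a set of 32 genes, chosen by name and matched by gene symbol among the 47729 genes of the deposited tables, and all 32 were found. They comprise 9 luminal chaperones and cochaperones, 2 lectin chaperones, 5 disulfide and prolyl isomerases, 4 genes of endoplasmic reticulum (ER) associated degradation, 4 genes of protein translocation, signal peptide removal and glycan transfer, 3 stress transcription factors, and 5 genes downstream of ATF4 or of amino acid synthesis. The rule lists gene names and sets no threshold on a measured value, and none of the 32 is among the marker genes that sorted the cells into types.

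Mouse bone marrow cells (C57BL/6NCrljOri, H-2b) were grown for 5 days with the growth factor GM-CSF at 40 ng/mL, and cells were sorted for droplet sequencing of transcript 3′ ends, in which each captured molecule carries a unique molecular identifier (UMI). The library without MSC held cells high for CD11b and for Ly6C from the culture without stromal cells. The coculture library held cells intermediate for both surface proteins, from marrow that shared its medium with human mesenchymal stem/stromal cells (MSC), kept in culture inserts (0.4 µM as the labels give it) at 1 MSC to 5 marrow cells after 24 h of preincubation. The study used the libraries to describe, cell by cell, the myeloid population that forms beside MSC. Both groups received GM-CSF, the labels name RPMI medium for marrow culture and DMEM for the coculture, and neither the number of mice nor their age is given in the sources used here.

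Proteins bound for secretion, granules or membranes enter the ER through a translocation channel, are glycosylated and folded with the help of chaperones and disulfide isomerases, and are sent for degradation if they fail to fold. When unfolded proteins build up, the sensors IRE1, PERK and ATF6 raise the transcription of chaperones through the factors XBP1 and ATF6, while PERK raises the translation of ATF4, which also answers to amino acid shortage and drives genes for amino acid supply. Granulocyte precursors make large amounts of granule protein, and plasma cells secrete antibody, so both are known for a developed ER.

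The 2 libraries gave 1817 and 3005 kept cells (without MSC, then coculture), with 27784963 and 29089241 UMIs and a median of 7016 and 6031 UMIs per cell. Barcodes above the mitochondrial limit made up 15.5% and 2.87% of the libraries and were left out, and 4 barcodes occurred in both libraries, 2 of them among the kept cells. With 1 library in each group there were no replicates and no test was run, and the 95% intervals cover counting error only. Sort gate, coculture, medium and library differ together and cannot be told apart in any comparison between the libraries. In pooled cells, fewer cells of a type and less RNA per cell cannot be told apart either. Levels are given as CPM, a gene's UMIs relative to all UMIs of the pooled cells named. A gene counted as measured at 10 CPM or more on either side of a comparison, and "higher" or "lower" in a count means by at least 2-fold.

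The members' promoters are shown first, because 8 of the members share a known stress element there. RefSeq entries on GRCm38.p6 were found for 28 of the 32 members, and Hyou1, Manf, Ostc and Sec11c had none. In the 250 bases before the annotated start, the ER stress response element, searched on both strands as CCAAT, any 9 bases and CCACG, occurred in 8 of the 28 members (28.6%) and in 35 of 27025 genes (0.130%). This element is known as a site for ATF6 and XBP1 together with the factor NF-Y. The members were chosen by name as genes of ER folding and stress, so their share and that of all genes are no independent comparison. Of the 8 members 7 belonged to the folding groups, and the other was the degradation gene Syvn1. The letters are given 5′ to 3′ on the gene's strand, with the element in capitals, and Hsp90b1 held a copy in each direction.
Hspa5 (chr2:34772020-34772048, plus strand): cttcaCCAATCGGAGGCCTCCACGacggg
Hsp90b1 (chr10:86705633-86705661, minus strand): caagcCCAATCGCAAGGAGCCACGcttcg
Hsp90b1 (chr10:86705528-86705556, minus strand): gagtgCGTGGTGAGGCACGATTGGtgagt
Dnajc3 (chr14:118937822-118937850, plus strand): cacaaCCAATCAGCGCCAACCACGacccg
Canx (chr11:50325795-50325823, minus strand): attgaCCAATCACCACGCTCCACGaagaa
Pdia6 (chr12:17266486-17266514, plus strand): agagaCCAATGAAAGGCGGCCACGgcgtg
Syvn1 (chr19:6046527-6046555, plus strand): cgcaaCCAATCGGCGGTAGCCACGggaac
For Calr and Creld2, which had the largest and the third largest excess in eosinophil-gated cells below, the upstream sequence is given as far as the start of the gene in the annotation, again with the element in capitals (here in the reverse direction).
Calr (chr8:84846935-84847181, minus strand): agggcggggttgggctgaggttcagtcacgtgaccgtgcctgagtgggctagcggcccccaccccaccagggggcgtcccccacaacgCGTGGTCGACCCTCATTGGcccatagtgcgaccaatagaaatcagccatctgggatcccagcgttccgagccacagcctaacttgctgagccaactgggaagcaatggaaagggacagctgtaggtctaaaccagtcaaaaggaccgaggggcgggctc
Creld2 (chr15:88819396-88819645, plus strand): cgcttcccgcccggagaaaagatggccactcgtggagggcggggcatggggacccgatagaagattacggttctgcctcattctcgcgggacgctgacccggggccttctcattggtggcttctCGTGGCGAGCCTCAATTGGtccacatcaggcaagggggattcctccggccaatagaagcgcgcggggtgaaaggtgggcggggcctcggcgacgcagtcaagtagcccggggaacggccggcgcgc

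A second form of the element, ATTGG, any 1 base and CCACG, occurred in Herpud1 alone among the members and in 0.0370% of all genes. The ATF4 composite element TGATGNAA, at which ATF4 pairs with a C/EBP factor, occurred in Herpud1, Chac1 and Asns, 3 of 28 members, against 3.91% of all genes. The unfolded protein response element TGACGTGG occurred in 0 of 28 members and in 0.603% of all genes. None of these motifs was seen to overlap another in the members, and a match describes letters only, not a site in use. Herpud1 carried that second form and the ATF4 composite element within 1 promoter, both in capitals. The stretches around the ATF4 composite element of Chac1 and Asns follow it. In Herpud1 and Chac1 the ATF4 composite element stands in the reverse direction. The starts are RefSeq's, and by the GENCODE gene bounds given below for Hspa5 and Asns the stretches shown for these genes lie inside the gene.
Herpud1 (chr8:94386179-94386428, plus strand): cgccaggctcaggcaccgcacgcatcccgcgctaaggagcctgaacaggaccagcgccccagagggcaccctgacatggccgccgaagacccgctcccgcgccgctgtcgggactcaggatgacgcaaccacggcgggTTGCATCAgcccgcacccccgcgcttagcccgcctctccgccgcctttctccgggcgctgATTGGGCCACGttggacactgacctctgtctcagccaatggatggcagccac
Chac1 (chr2:119351038-119351067, plus strand): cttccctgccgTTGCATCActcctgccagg
Asns (chr6:7693214-7693243, minus strand): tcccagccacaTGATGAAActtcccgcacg

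Pooled over all kept cells, the 32 members made up 0.548% (0.545 to 0.551%) of UMIs in the library without MSC and 1.13% (1.12 to 1.13%) in the coculture library, a ratio of 2.06. Of the 31 members measured (Chac1 stayed below the minimum), 13 were higher in the coculture, 1 was lower and 17 lay between, where 12.7% of the 8668 genes measured were higher and 11.7% lower. The members' median log2 ratio was 0.88, against 0.03 over all genes measured. Folding genes and the translocation genes carried the excess, while the degradation genes, the transcription factors and the ATF4 group did not share it as groups.

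Among the luminal chaperones and cochaperones, 6 of 9 were higher. Hspa5, which encodes BiP, the Hsp70 chaperone of the ER lumen (chromosome 2, 34771970 to 34777547, GRCm38), stood at 281 CPM (275 to 287) without MSC and 766 CPM (756 to 776) in the coculture (log2 1.45). Hsp90b1, the ER Hsp90, stood at 354 and 840 CPM, and Hyou1, a nucleotide exchange factor for BiP, at 20.6 and 46.8 CPM. Both were thus higher by more than 2-fold, with log2 ratios of 1.25 and 1.18. Sdf2l1, a partner of the ER J-domain proteins, had 105 CPM without MSC and 327 CPM in the coculture (log2 1.63). Manf, a stress-secreted cofactor of BiP, stood at 171 and 493 CPM (log2 1.52), and Creld2, an ER-resident stress gene, at 30.2 and 87.8 CPM (log2 1.54). The 3 J-domain cochaperones were the members of the group that lay between: Dnajb11 had a log2 ratio of 0.62, Dnajc3 of 0.30 and Dnajb9 of 0.07.

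The lectin chaperones hold sugar-bearing chains in the calnexin cycle, and here the pair divided. Calr, the soluble calreticulin (chromosome 8, 84841850 to 84846934), stood at 552 CPM (543 to 561) without MSC and 1995 CPM (1978 to 2011) in the coculture, and this difference (log2 1.85, 1.83 to 1.88) was the largest of the 32. Canx, the membrane-bound calnexin, was level at 252 and 255 CPM (log2 0.02, -0.03 to 0.06). Of the isomerases, 3 of 5 were higher. These were Pdia6 (log2 1.57), Pdia4 (1.36) and Pdia3 (1.30), which form or exchange disulfide bonds. P4hb, the classical protein disulfide isomerase, had a log2 ratio of 0.88 and Ppib, a prolyl isomerase, of 0.87.

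Sec61b, a subunit of the translocation channel, stood at 535 and 1088 CPM (log2 1.02), and Sec11c, a catalytic subunit of signal peptidase, at 184 and 414 CPM (log2 1.17). Ssr4, of the translocon-associated complex, and Ostc, of the oligosaccharyl transferase, lay just inside the 2-fold limit with log2 ratios of 0.98 and 0.96. All 4 genes of this entry machinery were therefore more abundant in the coculture library by similar amounts. None of the 4 degradation members reached 2-fold. Sel1l, the adaptor of the Hrd1 ubiquitin ligase, had a log2 ratio of -0.76 and Edem1, which recognises trimmed glycans, of -0.34. Syvn1, the Hrd1 ligase itself, had 0.19, and Herpud1, a ligase cofactor, 0.47.

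The transcription factors stayed nearly level: Xbp1 stood at 382 and 360 CPM, Atf4 at 191 and 238 CPM, and Ddit3, which encodes CHOP, at 25.8 and 25.2 CPM. Unspliced and spliced Xbp1 mRNA are not separated by counts of transcript ends, so these values say nothing of XBP1 activity. Trib3, a pseudokinase induced by ATF4 and CHOP, was the 1 lower member, at 22.0 and 7.77 CPM (log2 -1.50, -1.73 to -1.28). Psat1, of serine synthesis, was higher at 30.7 and 68.9 CPM (log2 1.17). Phgdh, the first enzyme of that pathway, had a log2 ratio of 0.46, and Asns, asparagine synthetase, of -0.53. The glutathione-degrading enzyme gene Chac1 had 160 and 100 UMIs in all.

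**Figure D1:**
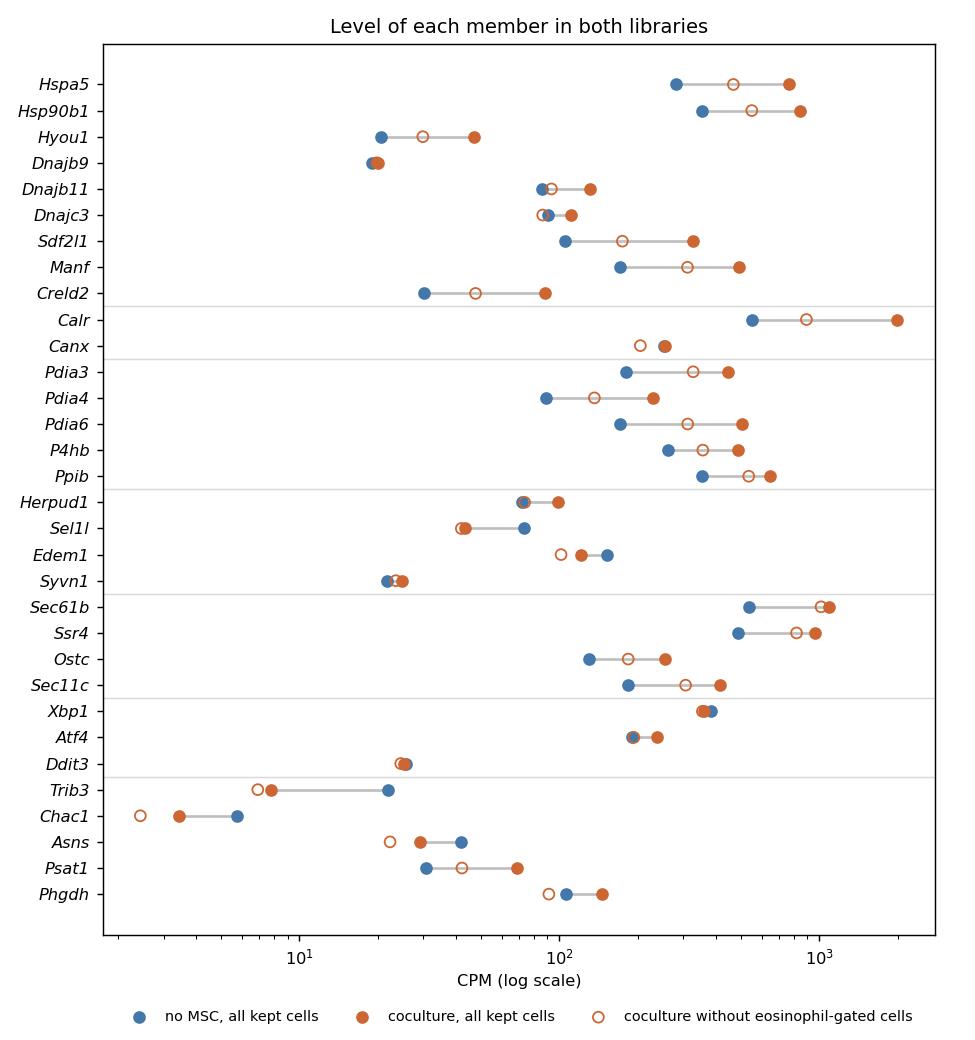
Level of each of the 32 members in CPM (log axis) over all kept cells without MSC (blue), all kept cells of the coculture (filled orange) and coculture cells other than eosinophil-gated ones (open orange), grouped by role. Calr moves from 552 to 1995 CPM between the filled points and sits at 892 CPM at the open point.

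Cells were assigned to types by the share of their UMIs from marker genes. No eosinophil-gated cell occurred among the 1817 cells without MSC, which allows a share of up to 0.165%, and 439 of the 3005 coculture cells (14.6%, 13.4 to 15.9%) were eosinophil-gated. In those 439 cells the members made up 2.13% of UMIs (2.12 to 2.14%), against 0.784% in all other coculture cells, 2.71 times as much. They held 48.1% of the members' UMIs in the coculture library and 25.4% of all its UMIs. Leaving them out, the members' share in the coculture was 1.43 times that without MSC, 0 members were higher (12.0% of all genes measured were) and 1, Trib3, was lower (9.44% were). The log2 ratios of the 13 genes that had been higher then lay between 0.46 and 0.92. The 13 calls in the pooled libraries thus do not hold without the eosinophil-gated cells.

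Across the other coculture types the members' share ran from 1.29% in 58 granulocyte-monocyte progenitor-gated cells and 1.09% in 382 basophil or mast cell-gated cells to 0.457% in 699 B cell-gated and 0.294% in 95 T or NK cell-gated cells. Between these stood megakaryocyte or platelet-gated cells (0.838%), macrophage-gated cells (0.756%), mature dendritic cell-gated cells (0.553%) and neutrophil-gated cells (0.514%). Counting intervals of neighbours in this order did not overlap. The spread between cells was wider than those intervals: the 10th to 90th percentile of single cells was 1.09 to 2.79% in eosinophil-gated and 0.472 to 1.52% in basophil or mast cell-gated cells. The types also differed in depth, from a median of 1884 UMIs in T or NK cell-gated to 17144 in eosinophil-gated and 21985 in megakaryocyte or platelet-gated cells. With every cell thinned to 2000 UMIs, the median cell held 39 member UMIs in the eosinophil gate, 25 in the progenitor gate, 17 in the basophil or mast cell gate and 15 in the megakaryocyte or platelet gate. The other gates had medians between 6 (T or NK cell) and 14 (macrophage). Cells with fewer UMIs were left out of this, among them 16 eosinophil-gated, 101 B cell-gated, 55 T or NK cell-gated and 21 neutrophil-gated cells of the coculture.

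**Figure D2:**
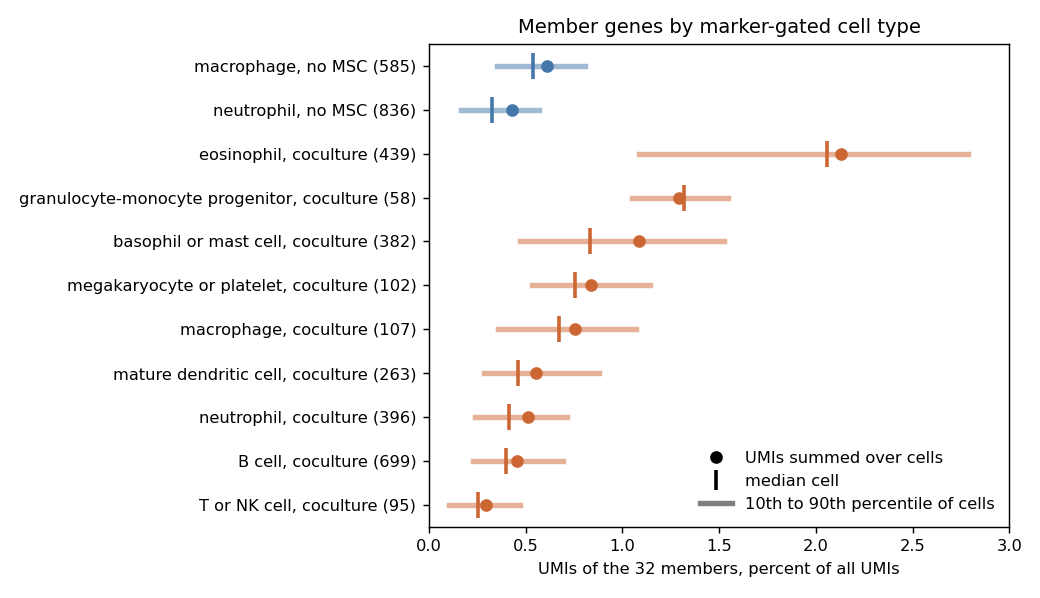
Share of UMIs on the 32 members (x axis, percent) for each marker-gated cell type with at least 40 cells, with the number of cells in parentheses. Points are UMIs summed over cells, ticks the median cell and bars the 10th to 90th percentile of cells. The eosinophil-gated point at 2.13% stands to the right of the other 10 points.

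Within the coculture library, 19 of the 31 measured members were higher in eosinophil-gated cells than in all its other cells and 0 were lower, where 4.69% of 8509 genes were higher and 18.6% lower. The median log2 ratio of the members was 1.25, against -0.16 over all genes measured. Calr stood at 5226 CPM in the eosinophil gate and 892 CPM elsewhere (log2 2.55, 2.53 to 2.58). Sdf2l1 stood at 773 and 175 CPM (log2 2.15), and Creld2 at 206 and 47.6 CPM (log2 2.11). Hspa5 followed the same direction with 1641 and 467 CPM (log2 1.81). Members with an ER stress response element had a median log2 ratio of 1.70 (8 genes, 0.27 to 2.55), and the other 20 with a promoter entry 1.03 (0.05 to 2.15). The ranges overlap almost entirely, with Syvn1 at the low end of the first set and Sdf2l1 at the high end of the second. The members that lay nearest to level between the eosinophil gate and the rest were Dnajb9 (0.05), Xbp1 (0.07), Ddit3 (0.15), Sel1l (0.16) and Syvn1 (0.27).

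Ranked over the 9 coculture types, 21 of the 32 members were highest in the eosinophil gate. Of the 11082 genes at 10 CPM or more in any of these types, 4.77% were highest there. Chac1, at 6.35 CPM, is among the 21 members but lies below that minimum. The lead over the next type ranged from 3.07-fold for Calr (2.94 to 3.21), ahead of the progenitors, down to 1.05-fold for Ppib (1.01 to 1.10), ahead of basophil or mast cells. For Chac1 the interval of the lead reached below 1. T or NK cell-gated cells, the smallest of the 9 pools at 191261 UMIs, had the lowest level for 21 members. Creld2, Trib3, Asns and Psat1 were at 0 UMIs there. The share of all genes lowest in that gate was not counted, so the 21 cannot be set against it. Prg2, the granule protein gene that marks eosinophils, stood in the other 8 types at 0.0929 to 0.637% of its eosinophil level. The members' sum stood there at 13.8 to 60.8% of its eosinophil level. Prg2 is a gate marker, so cells with much of it were kept out of those types. The part of free RNA from eosinophils was not tested.

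**Figure D3:**
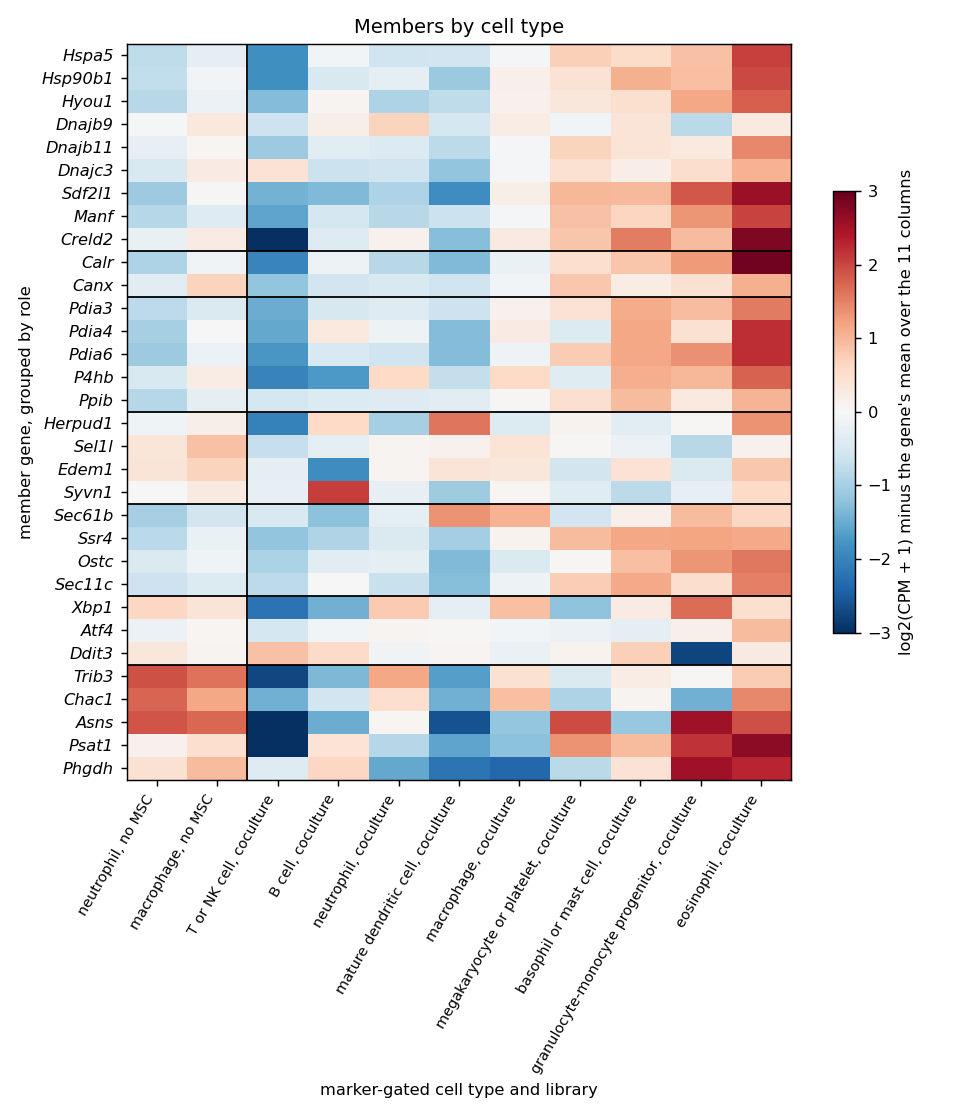
Each member (rows, grouped by role) in the 11 combinations of cell type and library (columns): colour gives log2(CPM + 1) minus the gene's mean over the columns, limited to 3 in either direction. The eosinophil column is red for most folding genes, and Trib3, Chac1 and Asns are red in both columns without MSC.

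The members not highest in eosinophil-gated cells were spread over 6 types. Progenitor-gated cells led for Xbp1 (856 CPM, next the macrophage gate at 503), Phgdh (369 CPM, next the eosinophil gate at 306), Asns (74.5 CPM) and Ssr4 (1433 CPM, level with 1407 in basophil or mast cells), while 13.6% of all genes were highest there. Mature dendritic cell-gated cells led for Sec61b (2155 CPM) and Herpud1 (207 CPM, eosinophil gate 174), against 14.7% of genes. The dendritic cells had low values for the chaperones all the same, with Sdf2l1 at 34.1 CPM and Calr at 282 CPM. In B cell-gated cells the ligase gene Syvn1 stood at 82.5 CPM, 2.91 times (2.39 to 3.54) its next level, of 28.4 CPM in the eosinophil gate. The partner gene Sel1l was at 35.0 CPM and Edem1 at 27.4 CPM, the lowest of the 9 types for Edem1. Dnajb9 and Trib3 were highest in neutrophil-gated cells (7.13% of genes were), Sel1l in macrophage-gated cells (5.93%) and Ddit3 in T or NK cell-gated cells (20.2%), each by a lead whose interval included 1. Syvn1 was the 1 member highest in B cell-gated cells, beside 11.1% of genes.

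Taking Hspa5 as the reference, the members were ordered by how closely their levels followed it over the 11 combinations of type and library, as Spearman's rho. Manf (0.99), Hyou1 (0.98), Pdia6 (0.95), Calr (0.93), Hsp90b1 (0.91) and Pdia3 (0.91) were most like it. Dnajb9 (0.05), Edem1 (0.05), Syvn1 (0.03), Chac1 (0.02), Trib3 (0.01), Sel1l (-0.11) and Ddit3 (-0.27) were least like it. These values describe 11 pools from 2 libraries, which share library and depth, and they carry no test.

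Eosinophil-gated cells differed in their share of cell cycle transcripts. Divided at 0.25% of UMIs on S and G2/M genes, the 186 cells above had 2.11% and the 253 below 2.15% of UMIs on the members, though 194 of the 439 lay within 2-fold of the division. The luminal chaperones summed to 5541 CPM above and 6275 CPM below, the isomerases to 4050 and 4352 CPM, and Calr stood at 5561 and 4831 CPM. Of the amino acid genes, Asns stood at 64.9 CPM above and 30.0 CPM below, Psat1 at 186 and 101 CPM, and Phgdh at 356 and 248 CPM. Dnajb9 went the other way, at 13.2 and 29.2 CPM. In B cell-gated cells the same division put the summed ATF4 and amino acid group at 391 CPM in the 32 cells above and 90.8 CPM in the 667 below. In basophil or mast cell-gated cells it put that sum at 237 and 78.2 CPM. The sums were closer in progenitor-gated cells, at 575 and 518 CPM, and in macrophage-gated cells without MSC, at 238 and 217 CPM. Only 16 eosinophil-gated cells had over 0.05% of UMIs on the receptor genes Ccr3, Siglecf and Il5ra, which are among the markers of this gate. Their member share was 1.68% (1.61 to 1.76%), against 2.14% in the other 423. Of the 439 cells, 58 lay within 2-fold of this division. The median cell had 6435.5 UMIs above it and 17851 below.

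Neutrophil-gated cells occurred in both libraries, 836 without MSC and 396 in the coculture. Their member share was 0.430% (0.425 to 0.434%) and 0.514% (0.507 to 0.521%), 1.20 times as much in the coculture. Of 31 measured members 1 was higher and 3 were lower, where 7.22% of 7674 genes were higher and 5.33% lower. The higher gene was P4hb, at 185 and 385 CPM (log2 1.06, 0.96 to 1.16). Pdia4 (0.84), Dnajb9 (0.77) and Sec61b (0.69) came next. Hspa5 and Calr, which divided the pooled libraries, were near level here, with log2 ratios of 0.17 and 0.09. Herpud1 had the lowest ratio outside the amino acid group, at 61.6 and 33.2 CPM (log2 -0.89).

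The 3 lower members in neutrophil-gated cells were the amino acid synthesis genes. Phgdh (chromosome 3, 98313170 to 98339990) stood at 85.1 CPM without MSC and 20.8 CPM in the coculture (log2 -2.03, -2.37 to -1.71). Asns (chromosome 6, 7675169 to 7693254) stood at 47.3 and 12.6 CPM (log2 -1.91), and Psat1 at 24.3 and 11.7 CPM (log2 -1.05). Chac1, under the minimum, had 62 and 12 UMIs. Trib3 stood at 23.7 and 13.8 CPM. All 5 genes of the group were therefore less abundant in the coculture cells, and their sum was 3.05 times lower (log2 -1.61, -1.80 to -1.42). With each cell given equal weight, Asns (-0.84) and Psat1 (-0.44) no longer reached 2-fold, while Phgdh (-1.20) did, and Psat1 (-0.99) also missed it with the gate cuts doubled. At a lead of 5 times over the next marker set Phgdh stood at -2.91.

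S and G2/M genes made up 0.0746% and 0.0670% of UMIs in these cells, and progenitor markers summed to 812 and 1518 CPM. Cells above 1% of UMIs on the granule genes Ltf, Camp and Ngp, of which there were 131 without MSC and 33 in the coculture, gave 269 and 97.9 CPM for the summed group. The remaining 705 and 363 cells gave 162 and 58.0 CPM. The group was lower in the coculture on both sides of that division, though 67 cells without MSC and 15 in the coculture lay within 2-fold of it. The part of granule gene content in the lower sum was not tested. Foreign markers were more abundant in the coculture neutrophil gate, with the eosinophil set at 604 CPM against 27.2, basophil or mast cell genes at 590 against 43.3 and B cell genes at 92.4 against 4.02. Their part in these ratios was not tested.

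Macrophage-gated cells numbered 585 without MSC and 107 in the coculture, with member shares of 0.608% and 0.756%, a ratio of 1.24. Of the 14 macrophage markers, 14 were over 20 CPM without MSC and 9 in the coculture. The lysozyme gene Lyz2 stood at 30576 and 3558 CPM. A change within 1 cell type therefore cannot be told apart from unlike cells in the 2 gates. Of 31 measured members 1 was higher and 4 were lower, beside 8.04% and 11.7% of 8371 genes. Sec61b was the higher one, at 575 and 1747 CPM (log2 1.60, 1.53 to 1.67). Phgdh stood at 121 CPM (1693 UMIs) without MSC and 11.3 CPM (14 UMIs) in the coculture, and Asns at 42.2 CPM (591 UMIs) and 4.85 CPM (6 UMIs). Their log2 ratios were -3.42 (-4.29 to -2.67) and -3.12 (-4.57 to -1.99). Psat1 (-1.82) and Trib3 (-1.26) were also lower, and the summed group was 5.89 times lower. A count of 4 lower among 31 is near the share of all genes. The 4 include the 3 that were lower in neutrophil-gated cells. The share of all genes lower in both gates was not counted, so this overlap cannot be set against it. Canx had the next lowest ratio, at 302 and 180 CPM (log2 -0.75), and Xbp1 stood at 353 and 503 CPM (log2 0.51).

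The coculture macrophage gate was mixed. Megakaryocyte or platelet markers summed to 619 CPM there and 2.50 CPM without MSC, with 6 and 5 of 10 at 0. Only 1 of these 10 was over 20 CPM there, so that sum rests mostly on 1 gene and does not mark the type. B cell markers summed to 534 CPM there and 3.21 CPM without MSC, with 0 of 10 markers at 0 in the coculture cells. Plasma cell markers summed to 479 and 68.5 CPM, with 5 and 6 of 10 at 0. Mature dendritic cell markers summed to 357 and 117 CPM, with 1 and 2 of 8 at 0. The part of these cells in the 5 calls was not tested. Phgdh stood at 95.8 CPM in B cell-gated and 12.8 CPM in mature dendritic cell-gated cells of the same library, and Sec61b at 363 and 2155 CPM. Demanding a lead of 5 times over the next marker set gave log2 ratios of -4.33 for Phgdh, -3.37 for Asns and 1.77 for Sec61b. With cells weighted equally Phgdh stood at -2.09 and Asns at -2.22.

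**Figure D4:**
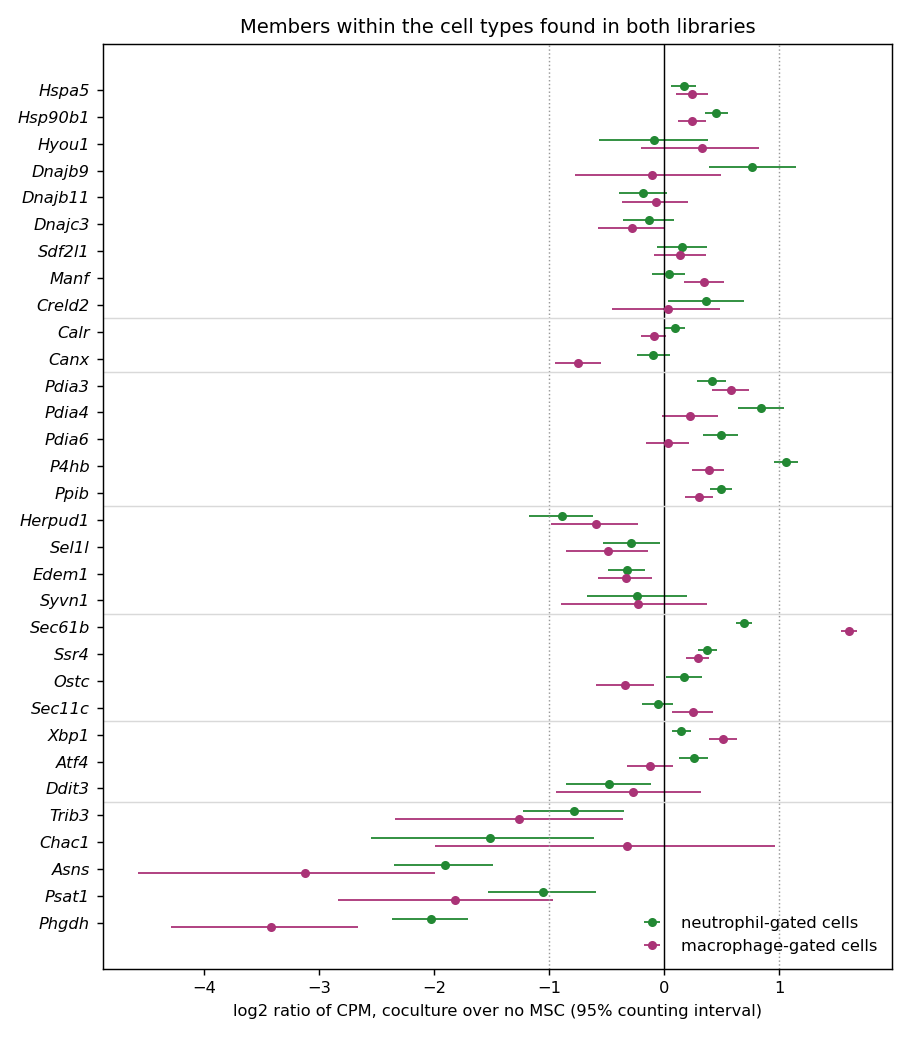
Log2 ratio of CPM, coculture over no MSC, for each member in neutrophil-gated (green) and macrophage-gated (purple) cells, with 95% counting intervals; dotted lines mark 2-fold. Phgdh, Asns and Psat1 lie left of the left dotted line in both types, and most folding genes lie between the lines.

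Within the library without MSC, macrophage-gated cells had 1.41 times the member share of neutrophil-gated cells. The members' median log2 ratio was 0.47, against 0.32 over all genes measured. Sdf2l1 (log2 1.13), Pdia4 (1.02) and Canx (1.01) were higher and 0 of 31 members were lower, beside 12.0% and 4.39% of 8055 genes. Of the amino acid genes, Asns had a log2 ratio of -0.17 between these types and Phgdh of 0.51, neither reaching 2-fold. Both types without MSC thus carried Asns above 40 CPM, a level that among the 9 coculture types was passed in the progenitor, megakaryocyte or platelet and eosinophil gates.

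Further genes of the same pathways, from lists drawn up with earlier results of these data known, were counted over all kept cells, where 12.7% of all genes measured were higher and 11.7% lower. Of 29 other measured ER folding genes 7 were higher in the coculture and 0 lower (median log2 0.72). Mzb1, a B-lineage partner of the ER Hsp90, stood at 0.936 and 137 CPM (log2 7.19), and 0.377% of its coculture UMIs were in the eosinophil gate. Rcn1, a calcium-binding ER protein, stood at 1.94 and 38.9 CPM (log2 4.32). At the other end Prdx4, an ER peroxidase, had a log2 ratio of -0.71, and Dnajc10 of -0.02. Of 25 other translocation and glycan transfer genes 5 were higher and 0 lower. Ssr2 (log2 2.16) and Ddost (1.57), subunits of the translocon-associated and oligosaccharyl transferase complexes, led, and named after their values were seen the others were Krtcap2 (1.19), Spcs2 (1.10) and Tmem258 (1.10), with Srp9 (-0.25) and Srp14 (-0.22) lowest. Of 14 other degradation genes 0 were higher and 0 lower, within a range from -0.50 for Ube2j1 and -0.49 for Aup1 to 0.85 for Erlec1 and 0.95 for Edem2.

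Among 15 ER sensors and feedback genes 2 were higher, a share near the 12.7% of all genes, Ppp1r15a (1.19), which reverses the PERK signal, and Creb3l2 (1.40). Ppp1r15b (-0.91) and Bcl2l11 (-0.85) were lowest. Of 30 measured genes of the ATF4 response and amino acid supply 4 were higher and 4 lower, again near the shares of all genes, with a median log2 ratio of 0.04. Atf3 (-3.01) and Atf5 (-2.30), factors induced under ATF4, were lowest, and Ddit4 (2.69) and Vldlr (5.05) highest. The other called genes, named after their values were seen, were Stc2 (1.92) and Aldh18a1 (1.01) on the higher side and Gdf15 (-1.52) and Cebpb (-1.29) on the lower. In neutrophil-gated cells Atf5 stood at 121 and 47.2 CPM (log2 -1.35) and Ddit4 at 15.6 and 75.1 CPM (log2 2.27). In macrophage-gated cells the same genes had log2 ratios of -2.54 and 3.09. Of 28 genes of this list measured in each gate, 2 were higher and 5 lower in neutrophil-gated cells (7.22% and 5.33% of all genes were). In macrophage-gated cells 1 was higher and 5 were lower (8.04% and 11.7%). Atf5 and the serine-to-glycine enzyme gene Shmt2 were among the lower ones in both. The share of all genes lower in both was not counted. Named after their values were seen, the other lower genes were Slc1a5, Psph and Cth in neutrophil-gated cells (Cth at 95 and 0 UMIs) and Atf3, Nupr1 and Tars in macrophage-gated cells, and the other higher gene beside Ddit4 was Slc7a11 in neutrophil-gated cells.

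Of 22 cytosolic and mitochondrial chaperones 3 were higher and 0 lower in the pooled coculture, where 12.7% and 11.7% of all genes were, with a median log2 ratio of 0.64. Fkbp4 (1.12) and Hsp90aa1 (1.11) were highest, Cct7 (1.07) was the other, and Hspa8 (-0.27) and Bag3 (-0.58) lowest. In the eosinophil gate against other coculture cells 1 of 23 (Fkbp4) was higher and 1 (Hspb1) lower, while 9 of 29 other ER folding genes were higher and 1 (Mzb1) lower, beside 4.69% and 18.6% of all genes. S and G2/M genes were higher in the pooled coculture too, 16 of 18 of them, with a median log2 ratio of 1.52, from Ube2c (2.25) and Aurka (2.09) down to Mcm5 (0.98) and Pcna (0.23). Their part in the pooled member ratio was not tested, and the member share above and below the cell cycle division was 2.11% and 2.15% in eosinophil-gated, 1.21% and 1.01% in basophil or mast cell-gated, 0.50% and 0.451% in B cell-gated, 1.23% and 1.39% in progenitor-gated cells, and 0.549% and 0.613% in macrophage-gated cells without MSC.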

How the data were processed

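Each library's deposited matrix gives whole UMI counts by gene and barcode, which the authors had not normalized. Cell Ranger, bcl2fastq and the mouse build mm10 are named in the submitters' processing notes, and the matrix headers name software 3.1.0. The annotation release is not given in the sources used here. Barcodes with fewer than 500 genes or over 10% mt- UMIs were left out. A type was assigned where its markers' share of UMIs passed a cut (0.15 to 1%) and, relative to the cuts, led the next set at least 2 times. Cells without such a lead (153 and 297) or under every cut (236 and 158) stayed ungated, and doublets were not called otherwise. Counts were summed per type and library in Python 3.11.15 with numpy 2.4.6 and scipy 1.17.1. Intervals are exact Poisson for CPM, conditional binomial for ratios and Clopper-Pearson for shares, and they treat UMIs as independent. Calling and gating were tested on simulated data. Each simulated cell held the markers of a single type, so cells with mixed markers were not covered. TMM factors came from edgeR 4.0.16. Promoters are RefSeq's and gene positions GENCODE's for GRCm38. All 32 members are named, and of every further list the 2 highest and 2 lowest measured genes. Members and lists were chosen with earlier results of these data known, and cuts, macrophage gate comparisons and the lead of 5 times were set after the data were seen.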

Additional observations from a re-analysis of the deposited data

Results flagged for a closer look

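Ostc, the oligosaccharyl transferase subunit, had ratios in opposite directions in the 2 cell types with at least 40 cells in both libraries. It was the 1 member for which each of these counting intervals was also clear of 0. Its log2 ratio, coculture over no MSC, was 0.17 (0.01 to 0.33) in neutrophil-gated cells, from 111 to 125 CPM. In macrophage-gated cells it was -0.34 (-0.60 to -0.09), from 141 to 112 CPM on 138 coculture UMIs. The difference between the types was not tested, neither ratio reached 2-fold, and each library is a single sample.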

How the results depend on the processing

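No paired analysis was possible because each group has 1 library, and no replicate could be left out. No ratio of the summed share and no gene called in a comparison changed direction. Of the single-gene ratios under the alternatives, 6 of 224 over all cells, 2 of 256 in the eosinophil comparison and 11 of 256 in each of the other gates had the opposite sign, among them the pooled Phgdh (0.46, and -0.21 without eosinophil-gated cells), Dnajc3 (0.30 and -0.06) and Canx (0.02 and -0.30), and Calr in neutrophil-gated cells (0.09, and -0.06 without the deepest cells). Over all kept cells the members' ratio of 2.06 was 2.07 with all barcodes and with the stricter cell filter (1000 genes, 5% mt- UMIs), 1.97 without the 5% of cells with most UMIs, 1.83 with cells weighted equally, 1.43 without eosinophil-gated and 2.35 without macrophage-gated cells. The count of 13 higher members became 0 without eosinophil-gated cells and otherwise stayed between 12 and 17, and the 1 lower member became 0 at a minimum of 50 CPM. In the eosinophil gate the ratio of 2.71 was 2.68 with the stricter filter, 2.74 without the deepest cells, 3.29 with equal weights and 2.60 at a lead of 5 times, and 18 to 23 members were higher. In neutrophil-gated cells the ratio of 1.20 was 1.16 without the deepest cells, 1.29 with equal weights and 1.17 at the lead of 5. There 3 members were higher with equal weights and 2 at the lead of 5, and 1 was lower at 50 CPM, as in macrophage-gated cells, whose ratio of 1.24 was 1.28 with equal weights and 1.31 at the lead of 5. TMM factors moved the median log2 ratio of all genes to -0.13 over all cells (908 genes higher and 1262 lower, against 1104 and 1010) and to 0.05 in the eosinophil comparison (687 and 1249, against 399 and 1585). At 50 CPM 403 and 513 genes were called over all cells, and 3824 and 1898 with 10 UMIs as the only minimum. Depth limits the ATF4 and amino acid genes in small gates: Chac1, Asns, Trib3, Psat1 and Phgdh rest on 5 to 14 UMIs each in the coculture macrophage gate, and all 5 together on 9 UMIs in the T or NK cell gate.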

Other observations

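A single coculture cell passed the plasma cell gate, with 32526 UMIs, of which 2.21% (2.05 to 2.37%) fell on the 32 members, close to the 2.13% of the eosinophil gate. The makeup of the 2 shares differed. Calr, at 5226 CPM in eosinophil-gated cells, stood at 830 CPM in this cell, while the luminal chaperones Hspa5 and Hsp90b1 stood at 3074 and 2890 CPM, Ssr4 at 3751 CPM and Edem1 at 553 CPM. As 1 cell it supports no comparison.

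Coculture neutrophil-gated cells were divided at 0.05% of UMIs on Arg1, a gene of suppressive myeloid cells. The 232 cells above had a member share of 0.484% (0.476 to 0.492%) and the 164 below 0.571% (0.559 to 0.583%). The eosinophil granule gene Prg2 stood at 231 and 891 CPM on the 2 sides, and its part in that difference was not tested. In 8 stromal or endothelial-gated coculture cells the members made up 0.821% of UMIs.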
